A study of Homo sapiens with 9 samples.

Results

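A set of 34 genes that keep DNA intact was followed across 9 RNA-seq libraries of MOLT4, a human T-cell acute lymphoblastic leukaemia line. The 34 members comprise genes of homologous recombination, the Fanconi anaemia pathway, DNA end processing and the DNA damage checkpoint, with the mismatch repair gene MSH6. They were chosen by gene symbol, and all 34 symbols were present among the 23621 gene rows of the expression table. All 34 also passed the filter on low values, a mean of at least 1 FPKM (fragments per kilobase of transcript, scaled to the number of mapped fragments) over the 9 libraries, as did 12301 gene rows in all.

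Cells had been exposed for 6 h, and each group held 3 libraries: those titled MI-389, those titled sunitinib and those titled DMSO. The design text calls MI-389 a phthalimide conjugate; sunitinib is an inhibitor of several receptor tyrosine kinases, and DMSO is the vehicle. All groups were of the same line, grown in RPMI medium with serum and antibiotics, and polyA RNA was collected with external RNA standards added by cell number. Groups here follow the sample titles, and a second label of the same samples crosses the compounds: it gives sunitinib at 1 µM for the libraries titled MI-389 and MI-389 at 0.1 µM for the libraries titled sunitinib, with 0.1% DMSO for the vehicle. If that second label is the right one, every compound name below changes places, and the doses that label gives are not matched. The labels do not say that replicates were separate cultures, so the p-values below measure the spread between these libraries, which may be technical.

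Homologous recombination repairs a broken chromosome from an intact sister copy. The broken ends are trimmed to single strands, BRCA1 and its partners bring BRCA2 to them, and the strand is then matched to the intact copy. The Fanconi pathway attaches ubiquitin to FANCD2 and FANCI at cross-links between DNA strands, which are then cut free and repaired with the help of recombination. ATM and ATR are the kinases that sense breaks and stalled forks and signal through CHEK2 and CHEK1 to hold the cell cycle. Many of these genes are transcribed mostly around S phase under E2F control, and a dividing leukaemia line uses them in every cycle.

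The libraries carried the markers of the labelled cell type: all 15 T-lineage markers averaged at least 1 FPKM, with CD3D at a mean of 1837 FPKM, and none of 6 myeloid markers did (CD14 was the highest of them, at 0.386 FPKM). Of 5 B-lineage markers, BLK, at a mean of 48.5 FPKM, and CD79A also averaged at least 1 FPKM. So did KRT8, at 1.65 FPKM, of 9 epithelial and fibroblast markers. Read depth was not given. The lowest steps of the values gave a depth relative to DMSO, from 81 genes for MI-389 and 85 for sunitinib. The most frequent ratio was about 1.37 for both, and the median ratio was 1.29 for MI-389 and 1.32 for sunitinib. The values had already been normalized, so these ratios may hold the normalization as well as depth. DMSO replicate 3 was the highest DMSO library for 33 of the 34 members, and for 75.7% of all tested genes. MI-389 replicate 2 was the lowest of its group for 28 of the 34 members. It was the highest of its group for 0 members, and for 7.65% of all tested genes. Counts of members without DMSO replicate 3 are therefore given beside the results.

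All members were expressed at readable levels. Their means over the 9 libraries ran from 5.88 FPKM for FANCB to 154 FPKM for RAD51C, with a median of 34.5 FPKM, against 25.2 FPKM over all tested genes. FPKM is scaled by transcript length, so these levels can be ordered between genes. The lowest single value was 4.601 FPKM and the highest was 172 FPKM. When members are ordered by mean level, 1 of the 33 neighbouring pairs was separated beyond the spread of the libraries, RAD51C over FANCI; the ranges of all other neighbours overlapped. FANCB, a core subunit, had 6.27, 5.65 and 6.06 FPKM in the libraries titled MI-389, 4.99, 4.601 and 5.75 FPKM in those titled sunitinib and 7.25, 5.46 and 6.86 FPKM in those titled DMSO. RAD51C, a recombination mediator, had 164, 160.0 and 161 FPKM in the libraries titled MI-389, 141, 137 and 132 FPKM in those titled sunitinib and 152, 168 and 172 FPKM in those titled DMSO. RAD50, XRCC3, RAD54B, MSH6, FANCA and several other members share exon sequence with another annotated gene, and the kit does not mark strand, so their reads may be split between genes.

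**Figure D1:**
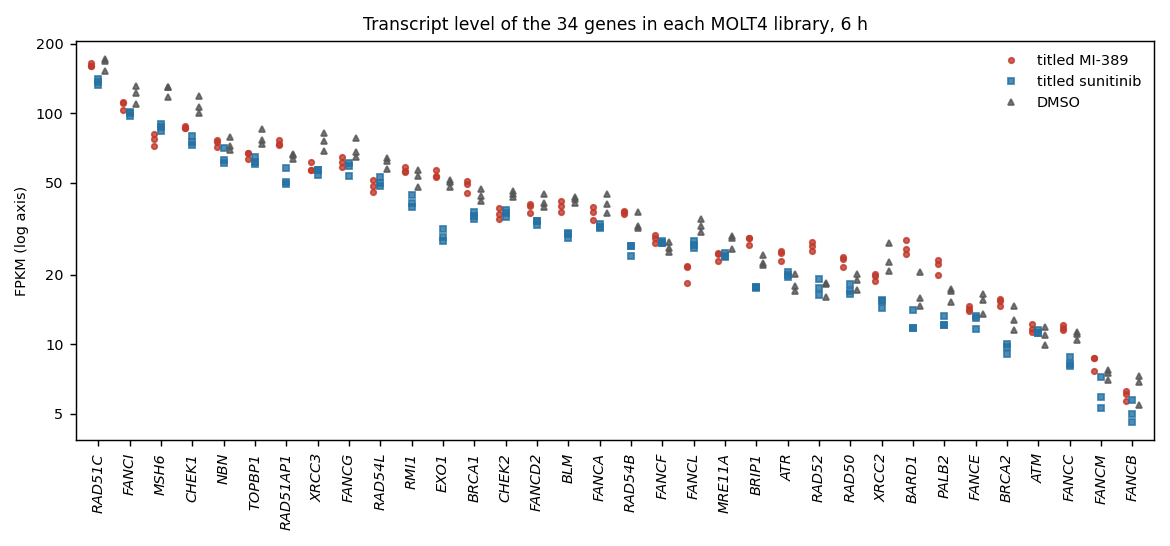
FPKM (log axis) of each member in each of the 9 libraries, with genes ordered by mean level and points coloured by group title. Mean levels run from 154 FPKM for RAD51C at the left to 5.88 FPKM for FANCB at the right, and neighbouring genes overlap.

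Promoters show what some members share in sequence. Windows of 300 bases, 250 before to 50 after the transcription start, were taken from RefSeq (GRCh38.p14) for the 31 members that the table held, with 44 starts in all; RAD54B, FANCI and NBN had no entry. The 4 below belong to the members called in most comparisons, with the smallest adjusted p, among those with an E2F or CHR match (a CHR, or cell cycle homology region, is an element of genes of late cell cycle). BRIP1 lies at chr17:61863479-61863778 on the minus strand, MSH6 at chr2:47782895-47783194 on the plus strand, XRCC2 at chr7:152676092-152676391 on the minus strand and EXO1 at chr1:241847954-241848253 on the plus strand. Each is written 5′ to 3′ along its gene, and capitals mark the match: the CHR letters in BRIP1 and E2F letters in the others. In BRIP1 and XRCC2 the match is on the opposite strand, so the reverse complement is printed.
BRIP1: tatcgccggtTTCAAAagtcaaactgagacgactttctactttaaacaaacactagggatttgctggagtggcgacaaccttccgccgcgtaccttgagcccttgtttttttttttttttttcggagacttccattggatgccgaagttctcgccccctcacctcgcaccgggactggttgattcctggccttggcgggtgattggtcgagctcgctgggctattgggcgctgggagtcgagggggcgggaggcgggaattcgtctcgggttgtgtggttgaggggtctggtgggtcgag
MSH6: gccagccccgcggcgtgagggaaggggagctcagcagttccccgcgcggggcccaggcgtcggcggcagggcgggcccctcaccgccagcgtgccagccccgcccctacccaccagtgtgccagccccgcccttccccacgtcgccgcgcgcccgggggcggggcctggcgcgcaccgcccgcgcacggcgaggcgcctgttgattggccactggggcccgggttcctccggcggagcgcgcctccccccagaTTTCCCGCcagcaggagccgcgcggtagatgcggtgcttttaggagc
XRCC2: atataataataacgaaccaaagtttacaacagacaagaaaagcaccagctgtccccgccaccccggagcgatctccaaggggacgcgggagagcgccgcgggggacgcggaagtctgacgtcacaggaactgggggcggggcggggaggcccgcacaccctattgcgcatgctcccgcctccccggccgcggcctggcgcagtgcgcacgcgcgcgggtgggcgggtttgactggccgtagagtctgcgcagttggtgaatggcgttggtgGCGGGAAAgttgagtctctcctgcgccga
EXO1: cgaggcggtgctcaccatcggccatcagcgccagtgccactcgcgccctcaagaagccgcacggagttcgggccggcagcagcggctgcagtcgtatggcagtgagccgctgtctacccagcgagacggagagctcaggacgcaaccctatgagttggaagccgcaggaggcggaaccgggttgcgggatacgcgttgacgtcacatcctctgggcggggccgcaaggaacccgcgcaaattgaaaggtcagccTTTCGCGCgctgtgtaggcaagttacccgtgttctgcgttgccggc

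The E2F letters (TTTCCCGC, TTTCGCGC, TTTGCCGC or TTTGGCGC, on either strand) lie in at least 1 promoter of 8 of the 31 members, or 25.8%, against 6.83% of 8726 tested symbols. The 8 are MSH6, XRCC2, EXO1, FANCC, RMI1, TOPBP1, FANCD2 and FANCA. Over the promoters of the whole table the share is 3.31% of 35114, against 18.2% of the 44 member promoters. Counting the first transcribed base as 1, the match begins at base 4 in MSH6, base 22 in XRCC2 and base 5 in EXO1. CHR letters (TTTGAA or TTCGAA) were found for 3 members, or 9.68%, against 15.4% of tested symbols, and in BRIP1 the match begins at base −240. The CCAAT box was found for 16 members, or 51.6%, against 43.8%. No matches of different motifs overlapped among the members. These are matches of letters, and no binding was measured.

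In the libraries titled sunitinib, 24 of the 34 members were lower than in DMSO, none was higher and 10 did not pass an adjusted p of 0.05 (limma, Benjamini-Hochberg over all tested genes). Among all tested genes 16.9% were lower and 2.37% higher, or 19.3% in either direction. The lower members reach into every role, from the BRCA genes to the checkpoint kinases. The median member difference was −0.293 on the log2(FPKM + 1) scale, against −0.095 over all tested genes, and the decreases were mostly under 1.5-fold. EXO1 and XRCC2 fell by at least 1.5-fold on mean FPKM. The 3 libraries titled sunitinib lay below all 3 DMSO libraries for 26 members and above them for none; over all tested genes 35.2% did not overlap in either direction. No higher member had an unadjusted p under 0.05, but median centring, quantile normalization and cyclic loess each called 2 higher, FANCF and ATR. The count of lower members was 19 without DMSO replicate 3, and 14 without sunitinib replicate 2 or without sunitinib replicate 3.

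EXO1, the exonuclease that extends trimmed ends, had the lowest ratio. It had 31.6, 29.3 and 27.9 FPKM in the libraries titled sunitinib and 47.8, 50.5 and 51.4 FPKM in the DMSO libraries. The groups did not overlap, with a log2 difference of −0.74 ± 0.06 (SE) and an adjusted p of 0.000426 (limma). XRCC2, a recombination mediator, had 15.5, 15.4 and 14.4 FPKM in the libraries titled sunitinib and 20.7, 22.6 and 27.4 FPKM in the DMSO libraries, with a log2 difference of −0.60 ± 0.09 and an adjusted p of 0.00378 (limma). DMSO replicate 3 was the highest of its group for XRCC2, and the libraries titled sunitinib lay below the lowest DMSO library.

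Among the 11 BRCA, mediator and translocase genes, 10 fell in the libraries titled sunitinib and RAD52 did not pass the test. BRCA1 averaged 36.0 ± 1.14 FPKM in the libraries titled sunitinib and 44.1 ± 2.55 FPKM in DMSO (SD, n = 3 each), and its binding partner BARD1 averaged 12.5 ± 1.37 FPKM in the libraries titled sunitinib and 16.98 ± 3.08 FPKM in DMSO. The BARD1 call has an adjusted p of 0.0428 (limma) and is lost without DMSO replicate 3 and under several other settings. PALB2, which bridges BRCA1 and BRCA2, differed by −0.38, BRCA2 by −0.39, RAD54B, a DNA translocase, by −0.38 and XRCC3, a recombination mediator, by −0.42 on the log2 scale. RAD51C, RAD54L, a second translocase, and RAD51AP1, which stimulates strand pairing, fell by smaller amounts: the differences were −0.26 for RAD51C, −0.27 for RAD54L and −0.31 for RAD51AP1. RAD52, which anneals single strands, had 19.2, 16.3 and 17.5 FPKM in the libraries titled sunitinib and 16.1, 18.2 and 18.5 FPKM in DMSO, which overlapped, and its 95% interval was −0.16 to 0.17 on the log2 scale.

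Of the 8 Fanconi core members, FANCA, FANCC, FANCG and FANCL fell and FANCB, FANCE, FANCF and FANCM did not pass. FANCC had the smallest adjusted p of these, at 8.35 ± 0.362 FPKM in the libraries titled sunitinib and 10.9 ± 0.467 FPKM in DMSO (adjusted p = 0.00537, limma). Its call held in all 21 settings, but that of FANCG held in 12, that of FANCL in 14 and that of FANCA in 16. The ubiquitinated pair FANCD2 and FANCI both fell, with log2 differences of −0.29 and −0.28, and BRIP1, a helicase bound to BRCA1, fell too, at −0.36. The FANCI call held in 14 of 21 settings. Among end processing and dissolution genes, BLM, a helicase, and RMI1, its partner in undoing joined molecules, fell with EXO1. BLM had 29.9, 28.9 and 30.2 FPKM in the libraries titled sunitinib and 40.8, 42.3 and 43.6 FPKM in DMSO. The 3 genes of the end-sensing complex did not pass: MRE11A differed by −0.20 (adjusted p = 0.0519), RAD50 by −0.11 and NBN by −0.18 on the log2 scale. CHEK1, CHEK2 and TOPBP1, the activator of ATR, fell, while ATM and ATR did not pass; CHEK1 had a mean of 76.04 ± 3.199 FPKM in the libraries titled sunitinib and 108 ± 9.55 FPKM in DMSO. MSH6, which takes part in reading mismatches, fell as well, with a log2 difference of −0.52.

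All 8 members with E2F letters in a promoter were among the members called lower here, and none of the 9 uncalled members with a promoter entry held them. This overlap is a description of the letters, and 14 members called lower had a promoter entry and no such letters. Of the 31 members with a promoter entry, 22 were called lower, so most members were lower with or without the letters. The share called lower among all tested symbols with these letters was not counted, so the overlap has no baseline.

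**Figure D2:**
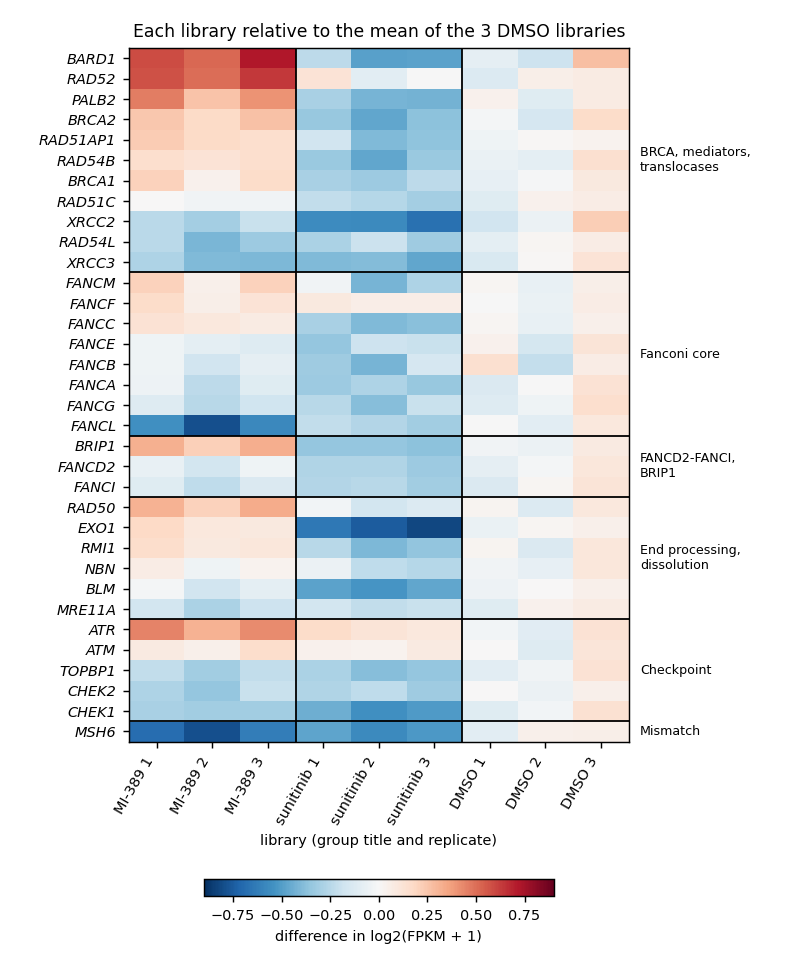
Difference of each library from the mean of the 3 DMSO libraries, in log2(FPKM + 1), for the 34 members by role; red is higher and blue is lower. The libraries titled MI-389 show red and blue rows side by side, with BARD1 and MSH6 at the ends, while those titled sunitinib are blue in most rows.

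In the libraries titled MI-389 the set was split: 8 members were higher than in DMSO, 9 were lower and 17 did not pass (limma). Among all tested genes 28.5% were higher and 28.3% lower, or 56.7% in either direction, so the share of members called is close to that of any tested gene. The median member difference was −0.001 on the log2 scale, against −0.002 over all tested genes. No member changed by 2-fold; BARD1 and RAD52 were at least 1.5-fold higher on mean FPKM, and MSH6 and FANCL were at least 1.5-fold lower. The groups did not overlap for 20 members, 10 in each direction, where 60.2% of all tested genes did not overlap. Without DMSO replicate 3 the counts were 11 higher and 8 lower. Median centring gave 7 higher and 15 lower, quantile normalization 9 and 15, and cyclic loess 9 and 14. Spike-in rescaling gave 7 higher and 9 lower.

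Of the 11 BRCA, mediator and translocase genes, 5 were higher, 3 were lower and 3 did not pass. BARD1, the partner that makes BRCA1 a ubiquitin ligase, had 25.8, 24.5 and 28.3 FPKM in the libraries titled MI-389 and 15.8, 14.7 and 20.5 FPKM in DMSO. No library of the groups overlapped, and the log2 difference was 0.61 ± 0.12 (adjusted p = 0.00177, limma). BRCA1 itself had 50.9, 45.3 and 49.5 FPKM in the libraries titled MI-389 and 41.7, 43.8 and 46.8 FPKM in DMSO, a difference of 0.14 that did not pass (adjusted p = 0.0886, limma; 95% interval −0.004 to 0.28). RAD52 had 26.6, 25.3 and 27.8 FPKM in the libraries titled MI-389 and 16.1, 18.2 and 18.5 FPKM in DMSO, again without overlap (log2 difference 0.57 ± 0.08). PALB2 had 23.1, 19.9 and 22.3 FPKM in the libraries titled MI-389 and 16.99, 15.3 and 17.4 FPKM in DMSO, with a difference of 0.37 ± 0.07 (adjusted p = 0.00196, limma). The groups did not overlap for PALB2 either, and they did for BRCA1. BRCA2 rose by 0.22 and RAD51AP1 by 0.18; the adjusted p of BRCA2 was 0.0388 and that of RAD51AP1 0.0318 (limma), and both calls were lost when some single libraries were left out. The BRCA2 call was also lost under quantile normalization, cyclic loess and spike-in rescaling and held in 9 of 21 settings, and the RAD51AP1 call was lost under median centring and held in 14.

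The mediators XRCC2 and XRCC3 and the translocase RAD54L were lower. XRCC3 had 61.8, 56.9 and 56.6 FPKM in the libraries titled MI-389 and 68.4, 76.01 and 82.1 FPKM in DMSO without overlap (log2 difference −0.36 ± 0.07, adjusted p = 0.00169, limma). XRCC2 differed by −0.25 with an adjusted p of 0.039 that did not hold without DMSO replicate 3 or in several other settings, and RAD54L by −0.33. XRCC3 shares 5756 of its 7507 annotated exon bases with KLC1 on the opposite strand, which differed by 0.065 in this comparison and by −0.137 in the libraries titled sunitinib and did not pass in either. RAD54L shares exon sequence with LRRC41 on the opposite strand, which was higher by 0.56 (adjusted p = 0.000187, limma). RAD51C and RAD54B did not pass; RAD51C, at −0.02 on the log2 scale, was called higher after quantile normalization (0.098) and cyclic loess (0.161).

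Of the 8 Fanconi core members only FANCL, the subunit that attaches ubiquitin, passed. It had 21.9, 18.4 and 21.5 FPKM in the libraries titled MI-389 and 32.6, 30.6 and 35.01 FPKM in DMSO, with no overlap and a log2 difference of −0.64 ± 0.08 (adjusted p = 7.56e-05, limma). FANCL shares 452 of its 2412 annotated exon bases with VRK2 on the opposite strand. VRK2 differed from DMSO by 0.155 and did not pass. It was higher in the libraries titled MI-389 than in those titled sunitinib, by 0.395 (adjusted p = 0.0147, limma). The other core members ranged from −0.18 for FANCG to 0.15 for FANCM, and no difference between FANCL and the other subunits was tested. FANCD2 and FANCI did not pass, and BRIP1 rose: 28.8, 26.8 and 28.98 FPKM in the libraries titled MI-389 and 22.4, 22.1 and 24.2 FPKM in DMSO.

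Some members of the same complex were called in opposite directions, where 28.5% of all tested genes were called higher and 28.3% lower. Whether this is particular to these complexes was not tested. In the end-sensing complex RAD50 had 23.4, 21.7 and 23.8 FPKM in the libraries titled MI-389 and 19.03, 17.1 and 20.1 FPKM in DMSO, a rise of 0.28 ± 0.07 on the log2 scale. MRE11A, its nuclease partner, had 24.9, 22.8 and 24.5 FPKM in the libraries titled MI-389 and 25.8, 28.7 and 29.5 FPKM in DMSO, a difference of −0.21 ± 0.06; the MRE11A call was lost without DMSO replicate 2 or without MI-389 replicate 2. Neither RAD50 nor MRE11A had overlapping groups. RAD50 shares 7784 of its 9771 annotated exon bases with AC116366.3 on the same strand, so its reads may be split between genes. NBN, the third subunit, was at 0.02 and did not pass. BLM, EXO1 and RMI1 did not pass either.

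Checkpoint members were also called in both directions. ATR, the kinase of stalled forks, had 25.3, 22.96 and 24.9 FPKM in the libraries titled MI-389 and 17.9, 16.9 and 20.1 FPKM in DMSO and rose by 0.40 ± 0.07 (adjusted p = 0.000931, limma). Its effector CHEK1 had 88.0, 86.7 and 86.6 FPKM in the libraries titled MI-389 and 99.8, 106 and 119 FPKM in DMSO and fell (−0.31 ± 0.07). Groups of both genes stood apart. TOPBP1 and CHEK2, the effector of ATM, fell too, at −0.25 and −0.28 on the log2 scale, and ATM did not pass. CHEK2 shares exon sequence with HSCB on the opposite strand, which was higher by 0.304. CHEK1 shares 80 of its 6558 annotated exon bases with STT3A on the same strand. STT3A differed from DMSO by −0.385 in the libraries titled MI-389 (adjusted p = 0.00091, limma). In the libraries titled sunitinib it differed by −0.244 (adjusted p = 0.0332, limma).

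MSH6 had the lowest ratio to DMSO. It had 77.4, 71.9 and 81.1 FPKM in the libraries titled MI-389 and 117, 129 and 130.1 FPKM in DMSO, a log2 difference of −0.70 ± 0.06 (adjusted p = 1.59e-05, limma). FBXO11, which shares 1785 of the 10993 annotated exon bases of MSH6 on the opposite strand, was higher by 0.613.

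**Figure D3:**
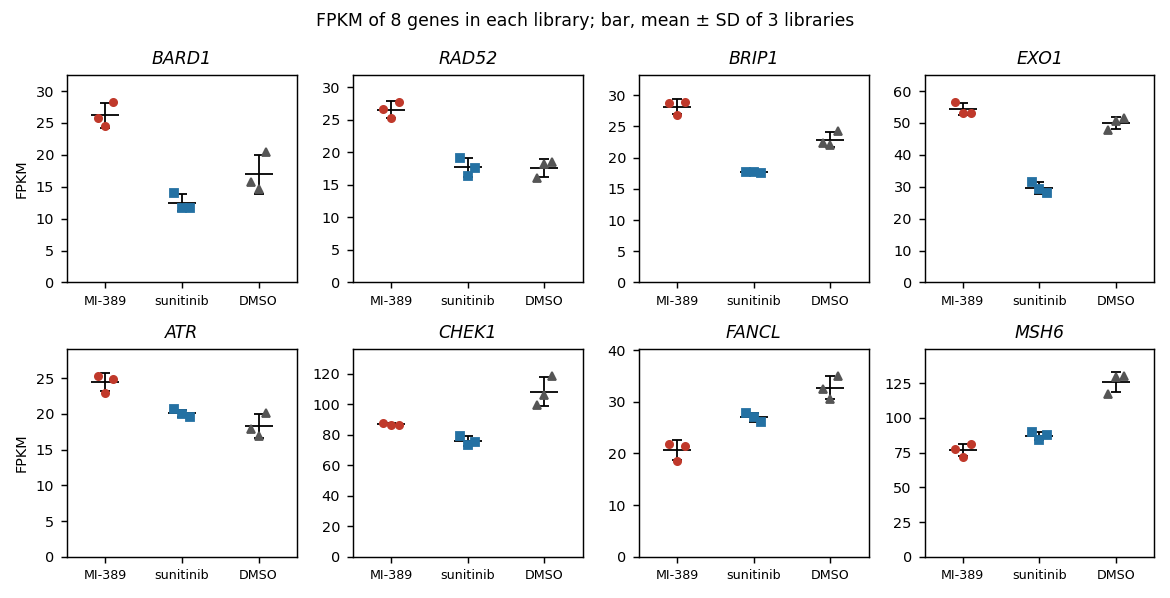
FPKM of 8 members in each library, by group title; bars are the mean ± SD of 3 libraries. BARD1 and ATR are highest in the libraries titled MI-389, MSH6 and FANCL are lowest there, and EXO1 is lowest in those titled sunitinib.

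The compound groups were also set directly against each other. In the libraries titled MI-389, 20 members were higher than in those titled sunitinib, 2 were lower and 12 did not pass (limma). Among all tested genes 36.0% were higher and 20.3% lower, or 56.3% in either direction. The share of members called in either direction is not far above that, and most of their calls were higher. The median member difference was 0.221, against 0.081 over all tested genes. The groups did not overlap for 25 members, 23 of them higher in the libraries titled MI-389, where 69.4% of all tested genes did not overlap. The scale of the libraries matters here: with median centring 16 members were higher and 8 lower, and the median of all tested genes moved to −0.084. With spike-in rescaling 21 members were higher and 2 lower.

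BARD1 alone passed 2-fold, with 25.8, 24.5 and 28.3 FPKM in the libraries titled MI-389 and 14.1, 11.7 and 11.7 FPKM in those titled sunitinib, a ratio of means of 2.09 and a log2 difference of 1.01 ± 0.12 (adjusted p = 7.82e-05, limma). EXO1 followed at a ratio of 1.84, PALB2 at 1.74, BRIP1 at 1.596, BRCA2 at 1.59 and RAD52 at 1.504. By role, 9 of the 11 BRCA, mediator and translocase genes were higher, 5 of the 6 end processing genes, FANCC and FANCM of the core, FANCD2 and BRIP1, and ATR and CHEK1 of the checkpoint. Of these, FANCD2 and NBN lost their calls under median centring, quantile normalization and cyclic loess, CHEK1 and RAD51C under median centring, XRCC2 under quantile normalization, and ATR under quantile normalization and cyclic loess. PALB2 had 23.1, 19.9 and 22.3 FPKM in the libraries titled MI-389 and 13.3, 12.1 and 12.1 FPKM in those titled sunitinib, so the groups stood on either side of DMSO. The lower members were FANCL and MSH6, at −0.38 and −0.18 on the log2 scale; the MSH6 call (adjusted p = 0.0352, limma) was lost when some single libraries were left out, without the filter and with a replicate block.

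For CHEK2, XRCC3, RAD54L and TOPBP1 both compound groups were lower than DMSO, and the difference between them did not pass as deposited. That depended on the scale of the libraries: CHEK2 and RAD54L were called lower in the libraries titled MI-389 under median centring (−0.169 and −0.224), quantile normalization (−0.186 and −0.196) and cyclic loess (−0.140 and −0.161), and XRCC3 and TOPBP1 under median centring (−0.107 and −0.076). CHEK2 averaged 36.8 ± 1.899 FPKM in the libraries titled MI-389 and 36.9 ± 1.13 FPKM in those titled sunitinib, with a 95% interval, as deposited, of −0.13 to 0.12 on the log2 scale. XRCC3 had an interval of −0.10 to 0.21, RAD54L of −0.20 to 0.09 and TOPBP1 of −0.06 to 0.23. ATM, FANCB, FANCE and FANCF passed in no comparison as deposited; ATM averaged 11.7 ± 0.525 FPKM in the libraries titled MI-389, 11.3 ± 0.221 FPKM in those titled sunitinib and 10.9 ± 0.949 FPKM in DMSO. The order of the 3 group means was MI-389 over DMSO over sunitinib for 13 members, DMSO over MI-389 over sunitinib for 12, DMSO over sunitinib over MI-389 for 5 and MI-389 over sunitinib over DMSO for 4. BRCA2, BARD1, PALB2, RAD51AP1 and BRIP1 passed in all 3 comparisons as deposited, with the first of these orders. The comparisons with DMSO share its 3 libraries.

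**Figure D4:**
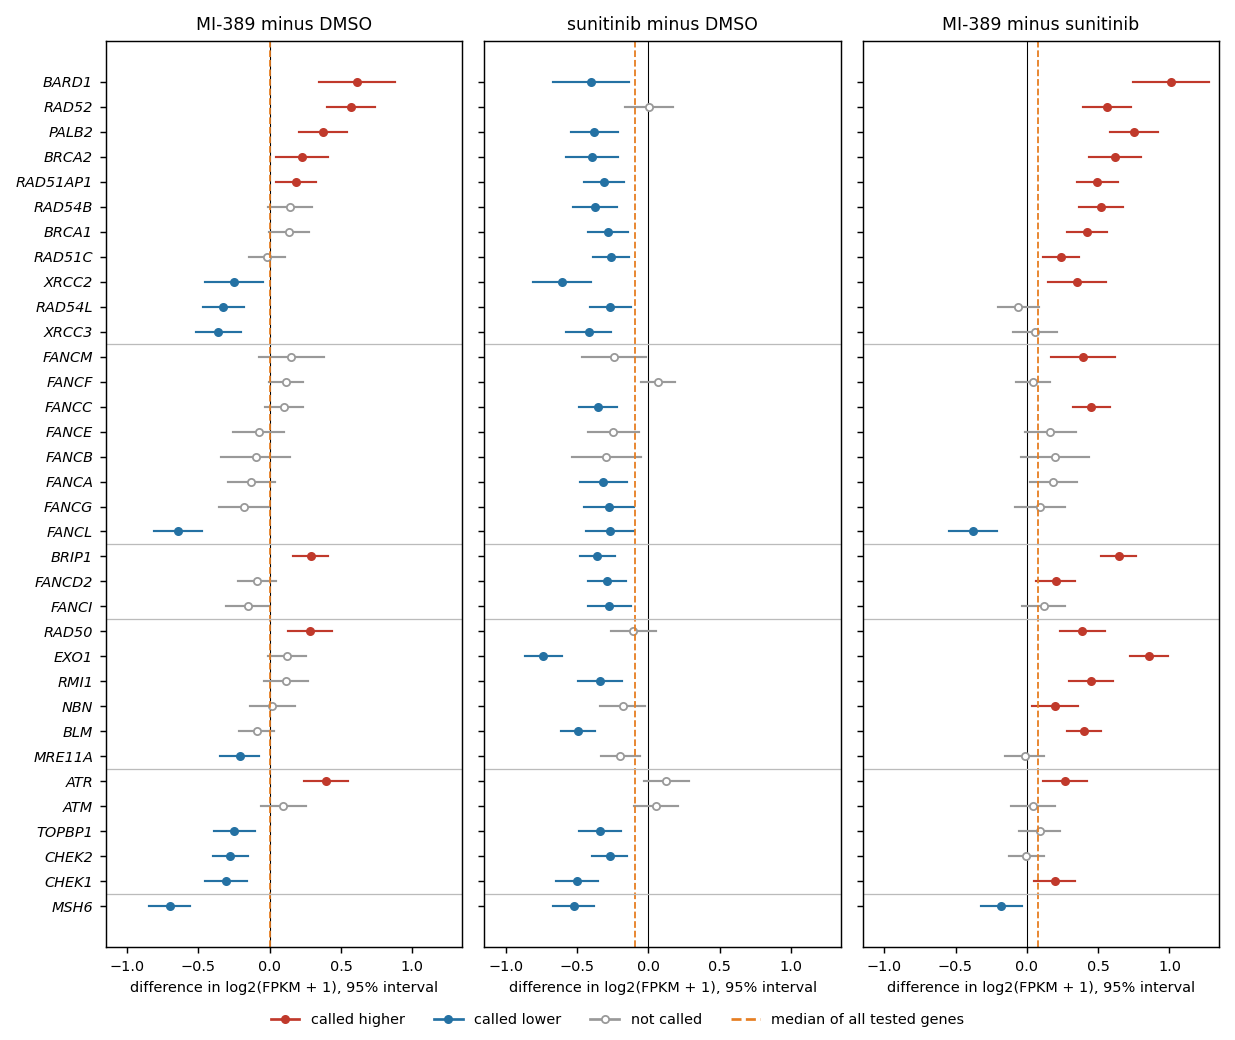
Difference in log2(FPKM + 1) with its 95% interval for each member in the 3 comparisons, with called members filled. Differences run from −0.702 to 0.609 for MI-389 minus DMSO, from −0.736 to 0.127 for sunitinib minus DMSO and from −0.376 to 1.012 for MI-389 minus sunitinib.

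The further lists are read beside the shares of all tested genes given above: 28.5% higher and 28.3% lower in the libraries titled MI-389 against DMSO, and 2.37% higher and 16.9% lower in those titled sunitinib. Of 32 further homologous recombination genes, 8 were higher and 8 lower in the libraries titled MI-389 against DMSO, and none was higher and 13 were lower in those titled sunitinib (1 was higher at an unadjusted p under 0.05, and 2 were called higher under median centring, quantile normalization and cyclic loess). HELQ, a helicase, was 2.19-fold as high in the libraries titled MI-389 as in DMSO, at 29.4 ± 1.61 FPKM against 13.4 ± 1.33 FPKM in DMSO. RPA1, a subunit of the single-strand binding complex, had 62.5 ± 2.81 FPKM in the libraries titled MI-389 and 105 ± 10.8 FPKM in DMSO. PSMC3IP, a cofactor of strand exchange, had 33.8 ± 0.503 FPKM in the libraries titled sunitinib and 53.7 ± 4.16 FPKM in DMSO (adjusted p = 0.000567, limma). Between the compound groups 21 of the 32 were higher and 5 lower in the libraries titled MI-389; with median centring the counts were 13 and 10.

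Of 18 further Fanconi genes, 5 were higher and 3 lower in the libraries titled MI-389 against DMSO, and 6 were lower and none higher in those titled sunitinib, where none was higher at an unadjusted p under 0.05. Median centring raised the lower count for MI-389 to 10. ERCC4, a nuclease subunit, had 11.5 ± 0.265 FPKM in the libraries titled MI-389 and 7.19 ± 0.374 FPKM in DMSO. USP1, which removes ubiquitin from FANCD2, had 126 ± 5.38 FPKM in the libraries titled sunitinib and 162 ± 6.93 FPKM in DMSO. Of 28 further checkpoint and signalling genes, 10 were higher and 9 lower in the libraries titled MI-389 against DMSO, and 10 were lower and none higher in those titled sunitinib, again none at an unadjusted p under 0.05 and 1 under median centring, quantile normalization and cyclic loess. HUS1, of the clamp that loads at stalled forks, was at 51.5 ± 1.41 FPKM in the libraries titled MI-389 and 24.01 ± 0.545 FPKM in DMSO (log2 difference 1.07 ± 0.05), while WEE1, the kinase that restrains mitotic entry, was at 44.4 ± 1.47 FPKM in the libraries titled MI-389 and 71.9 ± 0.897 FPKM in DMSO. CLSPN, the adaptor between ATR and CHEK1, had 16.5 ± 0.869 FPKM in the libraries titled sunitinib and 26.3 ± 2.16 FPKM in DMSO.

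End joining, the alternative to recombination, gave 5 higher and 4 lower of 16 genes in the libraries titled MI-389 and 3 lower in those titled sunitinib, near the shares of all tested genes. PARP1 had the smallest adjusted p among the lower genes, at 95.2 ± 3.98 FPKM in the libraries titled MI-389 and 189.7 ± 19.2 FPKM in DMSO, and DCLRE1C, the nuclease Artemis, the smallest among the higher ones, at 19.9 ± 0.369 FPKM in the libraries titled MI-389 and 10.7 ± 0.702 FPKM in DMSO. Of 6 further mismatch repair genes, 3 were higher and 1 lower in the libraries titled MI-389, and 2 were lower in those titled sunitinib. PMS2 had 15.6 ± 0.951 FPKM in the libraries titled MI-389 and 11.03 ± 1.56 FPKM in DMSO. Of 24 p53 target genes that respond to DNA damage, 7 were higher and 10 lower in the libraries titled MI-389 and 3 were higher and 5 lower in those titled sunitinib. PMAIP1, a promoter of cell death, had 168 ± 7.48 FPKM in the libraries titled MI-389 and 55.3 ± 3.09 FPKM in DMSO, and it rose by 1.58 on the log2 scale. BTG2, a growth-restraining gene, had 47.9 ± 3.49 FPKM in the libraries titled MI-389 and 17.5 ± 0.45 FPKM in DMSO, whereas RPS27L, also in that list, had 74.3 ± 0.499 FPKM in the libraries titled MI-389 and 121 ± 6.19 FPKM in DMSO.

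Cell cycle phase markers were counted beside the members. Of 28 S-phase genes, 1 was higher and 21 were lower in the libraries titled MI-389 against DMSO (median −0.410), and 27 were lower in those titled sunitinib (median −0.454). Of 25 G2 and M genes, 21 were lower in the libraries titled MI-389 (median −0.376) and 3 in those titled sunitinib (median −0.061), where median centring called 4 higher and quantile normalization and cyclic loess 7. Between the compound groups, 11 S-phase genes were higher and 7 lower in the libraries titled MI-389 (median 0.001), which became 15 lower with median centring and 17 higher with cyclic loess, and 1 G2 and M gene was higher and 18 were lower (median −0.271). PCNA, the sliding clamp of replication, had 711 ± 28.7 FPKM in the libraries titled MI-389 and 1723 ± 168 FPKM in DMSO, and CDC6, which readies replication origins, had 77.7 ± 2.899 FPKM in the libraries titled sunitinib and 122 ± 5.18 FPKM in DMSO. Fewer cells in a phase and less RNA per cell cannot be told apart in bulk libraries, and the part of cell cycle phase in the members' differences was not tested.

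**Figure D5:**
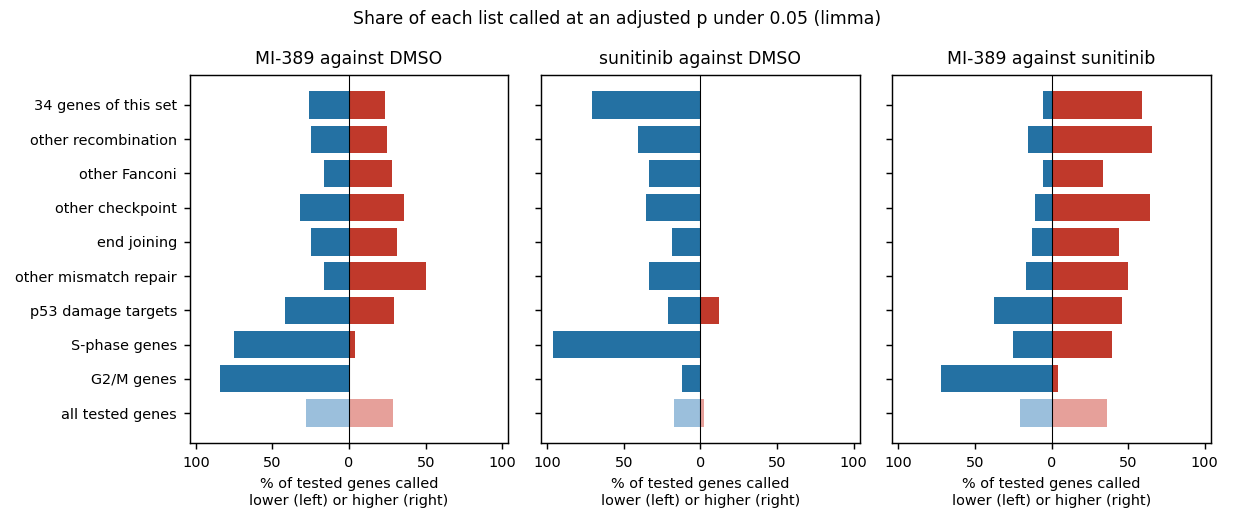
Share of tested genes in each list called lower (bars to the left) or higher (bars to the right) in the 3 comparisons, with all tested genes as the last row. The members show 8 higher and 9 lower of 34 for MI-389 against DMSO and 24 lower of 34 for sunitinib against DMSO; in S-phase genes 21 and 27 of 28 were lower.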

How the data were processed

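PolyA RNA from MOLT4 cells was measured in 9 libraries. The authors deposited a table of normalized FPKM, made with HISAT and Cufflinks 2.0.0 on hg19 per the submitters' processing notes; neither the annotation nor the normalization settings were named there. The table held 23713 rows, of which 92 were spike-in standards, and no column was left unused. No 2 libraries held identical values. The SMARTer v4 kit does not mark strand, so reads shared by overlapping genes were not separable. Sequencing depth is unknown apart from the relative estimate above, and 3 libraries a group limit precision.

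Values were tested as log2(FPKM + 1), a scale that understates changes of low genes, with limma 3.58.1 in R 4.3.3: rows averaging 1 FPKM or more, group as the only term, a variance trend, two-sided p, Benjamini-Hochberg adjustment over 12301 genes and a threshold of 0.05. The fit was checked on simulated data with independent noise for each gene and library. That check held no shifts of whole libraries, such as that of DMSO replicate 3, so it does not cover their effect on the calls. Ratios are of mean FPKM. Members and lists were chosen with earlier results of these data known. Any called member could be named, and from other lists up to 4 called genes with the smallest adjusted p per comparison; some of these are not reported here. Promoters came from RefSeq, and overlapping genes from GENCODE; no coordinates were converted. Alternatives were other pseudocounts, filters, normalizations, spike-in rescaling, variance models, a replicate block and leaving out each library; overlap counts and list counts under them were added after seeing the data.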

Additional observations from a re-analysis of the deposited data

How the results depend on the processing

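No called member changed direction under any alternative tried. Of the members called in the libraries titled MI-389 against DMSO, 13 of 17 were called in every setting, as were 11 of 24 for sunitinib against DMSO and 15 of 22 for MI-389 against sunitinib. Median centring, quantile normalization, cyclic loess and single libraries moved counts, while spike-in rescaling stayed near the counts as deposited. The spike-in offsets of the 9 libraries ran only from −0.0353 to 0.0559 on the log2 scale. Spike-in rescaling could therefore change little, and its counts are no separate check on the deposited scale. It gave 7 higher and 9 lower members in MI-389 against DMSO, against 8 and 9 as deposited. In sunitinib against DMSO it gave 0 and 23, against 0 and 24. In MI-389 against sunitinib it gave 21 and 2, against 20 and 2. Members lower in MI-389 against DMSO numbered 9 as deposited, 15 with median centring, 15 with quantile normalization and 14 with cyclic loess. For sunitinib against DMSO these 3 settings each called 2 members higher, against 0 as deposited, kept all 24 lower calls, and gave medians of −0.207, −0.189 and −0.191 in that order. For MI-389 against sunitinib they gave 8, 7 and 7 lower members, against 2, and medians of 0.056, 0.124 and 0.148; CHEK2, RAD54L, MRE11A and FANCF, not called as deposited, were called lower in all 3 of them, ATM under quantile normalization and cyclic loess, and TOPBP1 and XRCC3 under median centring. The higher share of all called genes in sunitinib against DMSO was 12.3% as deposited and 40.5% with median centring, 46.1% with quantile normalization and 48.6% with cyclic loess. In MI-389 against sunitinib it was 63.9%, and 40.3%, 46.1% and 50.2% in that order, and in MI-389 against DMSO 50.2%, and 39.4%, 45.8% and 50.7%. With spike-in rescaling the share was 12% in sunitinib against DMSO, 64.4% in MI-389 against sunitinib and 50.2% in MI-389 against DMSO. The cause of the differences between settings was not tested. Without the filter on low values 1 member was lower in MI-389 against sunitinib.

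Leaving out single libraries gave 14 to 25 lower members in sunitinib against DMSO, where sunitinib replicates 2 and 3 each took 10 of the 24 calls with them, and 1 to 2 in MI-389 against sunitinib. In MI-389 against DMSO it gave 6 to 11 higher and 7 to 12 lower. Replicate numbers gave little sign of pairing: same-number correlations of deviations ran from −0.042 to 0.112, with 1 of 9 over 0.1. With 3 libraries a group these correlations cannot exclude pairing or a shared batch. With a replicate block the counts were 8 higher and 8 lower for MI-389 against DMSO, 0 and 25 for sunitinib against DMSO, and 19 and 1 for MI-389 against sunitinib. Of the counts over the other lists under all alternatives, 910 were within 1.5 times of the value as deposited and 98 were not.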
